A study of Mus musculus with 4 samples.

Results

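Notch signalling was examined in mouse liver through 10 of its genes, out of 13903 genes in the deposited expression table. The genes were chosen by name, as the rows of the table for the receptors Notch1, Notch2, Notch3 and Notch4, the ligands Jag1 and Jag2, the DNA-binding factor Rbpj and the target genes Hes1, Hey1 and Heyl, and all 10 were found. Bulk mRNA-seq was performed on livers of OGT-Floxed mice (C57BL/6J background) on a CDE diet, a choline-deficient, ethionine-supplemented feed that injures the liver. Mice labelled OGT-KO were given AAV8-TBG-CRE and mice labelled control were given AAV8-TBG-eGFP. In both viruses the TBG promoter drives expression in hepatocytes, so that all 4 groups share the floxed allele, the diet and a virus. Livers were collected with no recovery or at 7 days of recovery. Each of the 4 conditions was 1 library of equally pooled RNA from 3 mice. There is thus no replicate error, and the label cannot be told apart from the pool of mice. The age and sex of the mice are not given in the sources used here.

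Notch receptors sit at the cell surface and are activated by ligands, such as the Jagged proteins, on a neighboring cell. Binding leads to cleavage of the receptor by ADAM proteases and then by gamma-secretase, and the freed intracellular domain enters the nucleus, joins RBPJ and a Mastermind co-activator, and turns on genes of the Hes and Hey families. In the liver the pathway is known for directing progenitor cells to the bile duct fate and for its part in vessels and fibrosis. The protein that carries the signal is made by cleavage, so RNA levels of these genes do not measure it.

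Levels are given as CPM, reads per 1000000 reads on the listed genes, with the library totals between 19972699 and 22866431 reads, and 3 reads correspond to 0.131 to 0.150 CPM. Intervals are 95% exact intervals and cover counting error only. Ogt itself had 64.7 CPM in the library labelled control and 55.3 in the OGT-KO-labelled library at no recovery, and 55.7 and 77.7 at 7 days. The whole-gene value went against the label at the later time on the deposited scale. Reads were not split by exon, so this value does not check the deletion. Genes in general were higher in the OGT-KO-labelled libraries: the median of the 8963 compared genes (mean of 10 CPM or more over the libraries) was 0.51 on the log2(CPM + 1) scale with no recovery and 0.48 at 7 days, and member values are to be read against that shift. At a 2-fold difference on this scale, 24.4% of these genes were higher and 5.69% lower with no recovery, and 22.9% were higher and 4.27% lower at 7 days. Ogt differed by -0.22 with no recovery and by 0.47 at 7 days, the latter close to the median gene. Under the median-ratio scaling described below it differed by -0.93 and -0.20. At 7 days it differed by -0.005 under upper-quartile scaling.

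All 10 Notch pathway genes had more CPM in both OGT-KO-labelled libraries than in either library labelled control. Most genes were higher as well: 80.1% of all 13903 genes with no recovery and 82.3% at 7 days. Of the 10 members, 6 passed the filter of a mean of 10 CPM (Notch1, Notch2, Jag1, Hes1, Heyl and Rbpj). Of these 6, 4 were at least 2-fold higher with no recovery and 5 at 7 days, and none was lower. Jag1 and Heyl passed that filter only through the OGT-KO-labelled libraries, with control means of 6.62 and 1.59 CPM, so that the counts of members that passed are not evidence on the pathway. Without the filter, 8 and 9 of the 10 were at least 2-fold higher, against 33.1% and 32.3% of all 13903 genes. The median difference over the 10 was 1.66 with no recovery and 1.53 at 7 days, where the median over all 13903 genes was 0.65 and 0.61. The range ran from Notch2 and Rbpj, which lay close to the general shift at one of the times, to Heyl, which lay far above it at both.

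**Figure D1:**
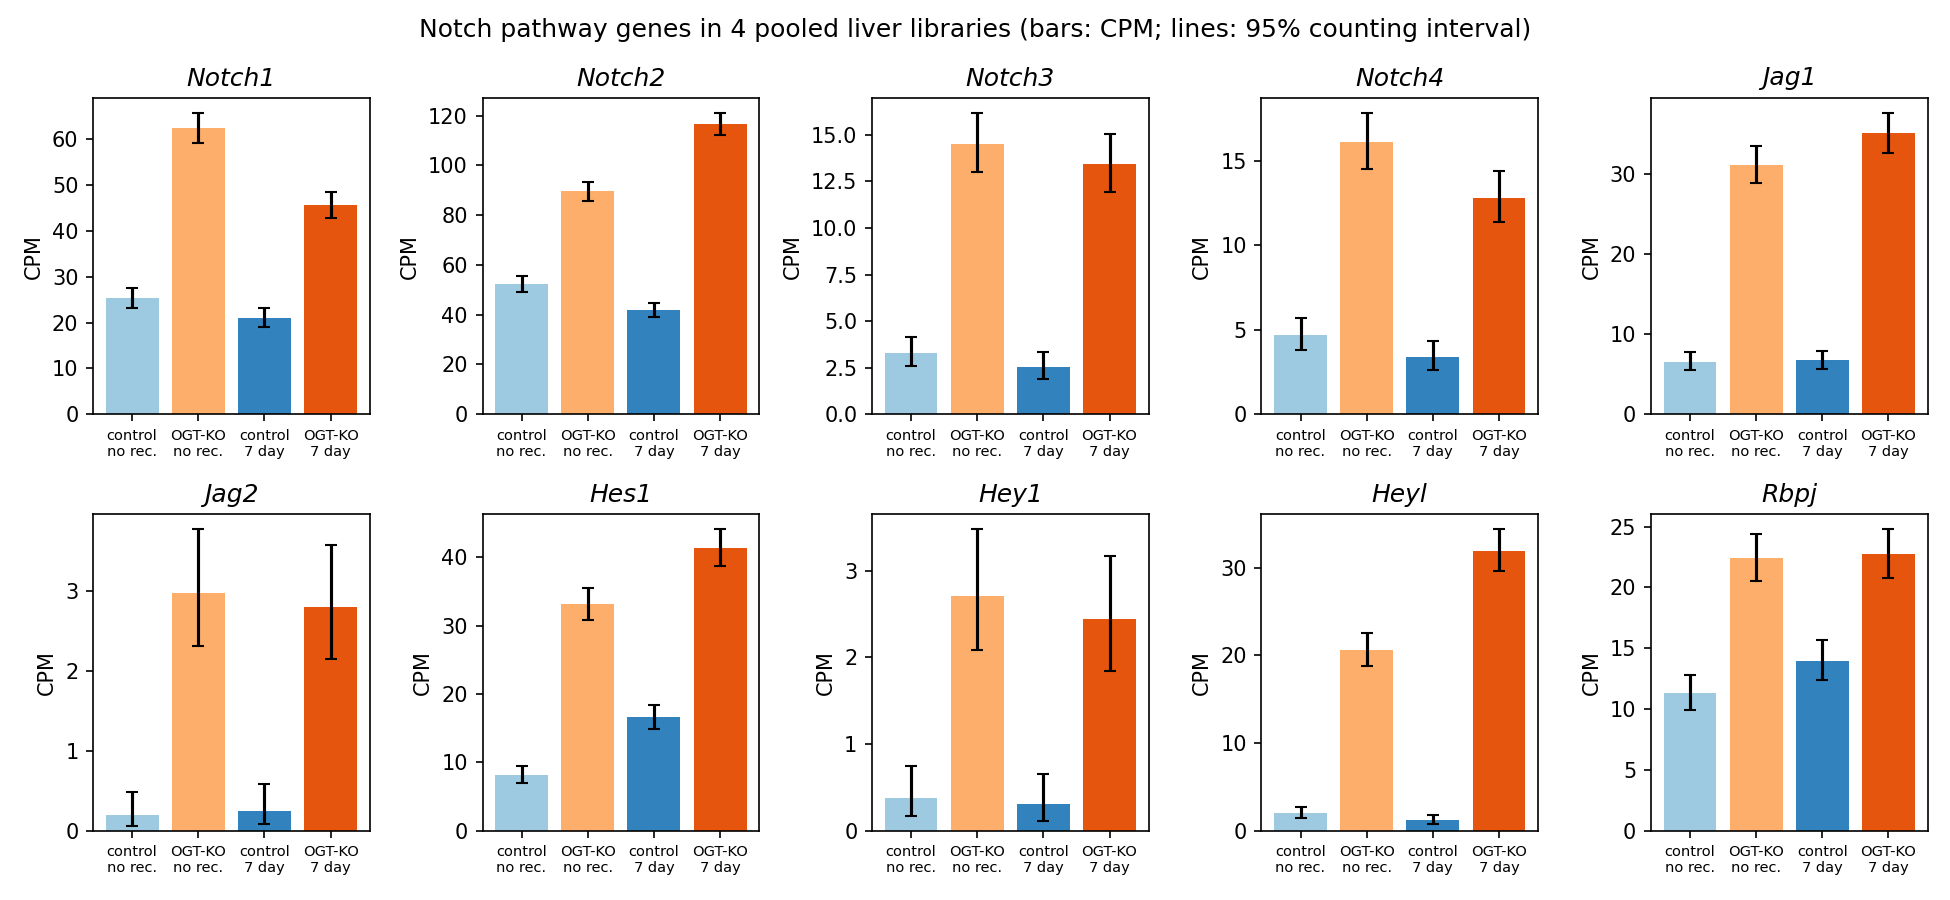
Level of each gene (CPM, vertical axis from 0) in the 4 libraries, with bars for the level and lines for the 95% counting interval. In every panel both OGT-KO-labelled libraries stand above both libraries labelled control, by the least for Rbpj and Notch2 and by the most for Heyl and Jag2.

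Among the receptors, Notch2, which is linked to bile duct formation, was the most abundant in every library, per length of exons as well as in reads. It had 52.3 CPM in the library labelled control and 89.5 in the OGT-KO-labelled library at no recovery, and 42.0 and 116 CPM at 7 days. The OGT-KO-labelled libraries were 1.71-fold (1.59 to 1.84) higher with no recovery and 2.78-fold (2.57 to 3.01) higher at 7 days. Notch1, a receptor of endothelial and many other cells, had 25.4 and 62.4 CPM with no recovery and 21.0 and 45.6 CPM at 7 days, in the same order of libraries. The ratios were 2.46 (2.23 to 2.72) and 2.17 (1.94 to 2.44), so the difference of Notch2 was the smaller with no recovery and the larger at 7 days.

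The 2 receptors of vessels were scarcer and differed by more. Notch3, known from smooth muscle cells and pericytes, had 3.29 CPM in the library labelled control and 14.5 in the OGT-KO-labelled library at no recovery, and 2.55 and 13.4 CPM at 7 days. Notch4, known from endothelium, had 4.70 and 16.1 CPM, then 3.40 and 12.8 CPM. The ratios of Notch3 were 4.41 (3.40 to 5.79) and 5.26 (3.90 to 7.22), and those of Notch4 were 3.42 (2.74 to 4.31) and 3.76 (2.88 to 4.97). Neither gene reached the mean of 10 CPM, with means of 8.45 and 9.25.

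The shares of the receptors in their summed reads differed between libraries. Notch3 took 3.84% (3.01 to 4.83, Clopper-Pearson) of the receptor reads in the library labelled control and 7.95% (7.15 to 8.82) in the OGT-KO-labelled library at no recovery, and 3.70% and 7.13% at 7 days. Notch4 went from 5.49% to 8.82% and from 4.94% (3.85 to 6.22) to 6.80% (6.06 to 7.60), and the intervals of the later pair overlapped. Notch2 took 61.1% and 60.9% in the control libraries, 49.0% in the OGT-KO-labelled library at no recovery and 61.8% at 7 days. Notch1 took 29.6% and 34.2% with no recovery and 30.5% and 24.2% at 7 days, so its share did not go with the label. Thus the share of Notch2 stood apart in 1 of the 4 libraries, whereas those of Notch3 and Notch4 were higher in both OGT-KO-labelled libraries. Shares within a library do not depend on how the libraries were scaled.

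**Figure D2:**
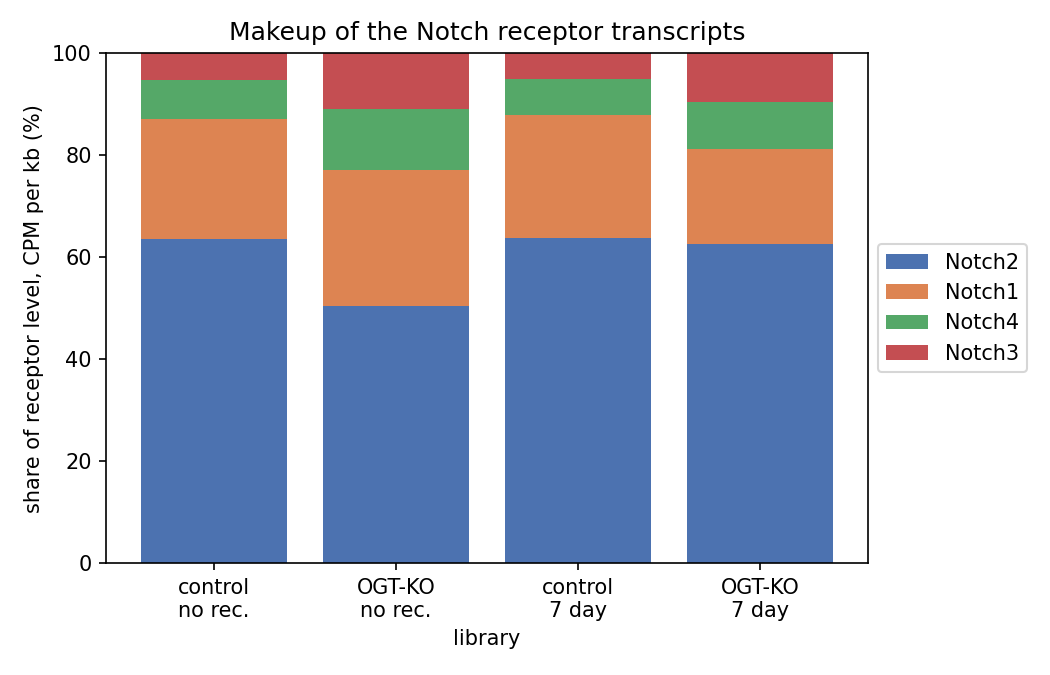
Share of each receptor in the summed receptor level of a library, in percent of CPM per kilobase of the union of all exons of the gene. Notch2 takes the largest part of every bar, at 63.6% and 63.7% in the libraries labelled control, and Notch3 and Notch4 take more in both OGT-KO-labelled libraries.

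Of the ligands, Jag1, the ligand whose loss causes bile duct paucity, had 6.54 CPM in the library labelled control and 31.1 in the OGT-KO-labelled library at no recovery, and 6.71 and 35.0 CPM at 7 days. The ratios were 4.76 (3.96 to 5.75) and 5.22 (4.34 to 6.31), and the 2 libraries of one label lay close together. Jag2 was rare, with 4 and 68 reads with no recovery and 5 and 63 reads at 7 days. Its ratios of 15.8 (5.90 to 59.7) and 11.2 (4.53 to 35.5) had wide intervals, and the value of each rests on the few control reads. Jag1 made up 97.2% and 96.4% of the Jagged reads in the control libraries, and 91.3% and 92.6% in the OGT-KO-labelled libraries.

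Rbpj, the DNA-binding factor through which all 4 receptors act, had 11.3 and 22.4 CPM with no recovery and 14.0 and 22.7 CPM at 7 days. The ratios were 1.98 (1.70 to 2.32) and 1.63 (1.40 to 1.89), the smallest of the 10 at 7 days, and the log2(CPM + 1) difference at 7 days, 0.66, was 0.19 above the median gene. Each other member was therefore also set against Rbpj in the same library, a ratio that no scaling changes. Heyl per Rbpj was 5.15-fold (3.63 to 7.29, normal approximation on the log scale) higher in the OGT-KO-labelled library at no recovery and 17.0-fold (11.0 to 26.5) at 7 days. Jag1 per Rbpj was 2.40-fold (1.89 to 3.04) and 3.21-fold (2.54 to 4.05) higher, and Hes1 per Rbpj 2.05-fold (1.64 to 2.57) and 1.53-fold (1.27 to 1.86). Notch2 per Rbpj was 0.863 (0.728 to 1.02) with no recovery, an interval that includes 1, and 1.71 (1.45 to 2.01) at 7 days.

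The RBPJ protein binds the letters TGGGAA, and promoter windows (250 bases before to 50 after a start, RefSeq, GRCm38.p6) were searched for them on both strands, since they are the sites through which the members could act on one another. Windows of 7 members were matched, 8 windows in all, and not those of Hes1, Hey1 and Heyl. TGGGAA was found in 2 of the 8, both of Rbpj itself and overlapping each other, against 25.6% of 32851 windows. GTGNGAA, a longer form of the site that need not hold TGGGAA, was found in 1, of Notch4, against 14.2% of all windows. These matches are letters in a window and do not show binding. The stretches that hold them are printed upstream of the start, with the motif in capitals (TTCCCA and TTCACAC are the motifs read on the other strand).
Rbpj, chr5:53590176-53590305, plus strand: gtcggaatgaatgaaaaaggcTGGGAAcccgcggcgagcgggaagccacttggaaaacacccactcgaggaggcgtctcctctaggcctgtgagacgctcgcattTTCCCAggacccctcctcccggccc
Notch4, chr17:34564185-34564274, plus strand: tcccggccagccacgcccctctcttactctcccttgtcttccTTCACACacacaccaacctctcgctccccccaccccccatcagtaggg

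The target genes all stood higher in the OGT-KO-labelled libraries, and they differed in how they stood at the 2 times. Hes1, a repressor that is the classic target of the pathway, had 8.14 and 33.1 CPM with no recovery and 16.6 and 41.4 CPM at 7 days. Its ratio was 4.07 (3.45 to 4.83) with no recovery and 2.50 (2.20 to 2.84) at 7 days, and the control library at 7 days held more Hes1 than the earlier one. Heyl, a target known from vascular smooth muscle, had 2.02 and 20.6 CPM with no recovery and 1.15 and 31.9 CPM at 7 days. Its ratio was 10.2 (7.46 to 14.3) with no recovery and 27.7 (18.3 to 44.1) at 7 days, on 43 and 23 reads in the control libraries. Hey1, a target known from endothelium, had 8 and 62 reads with no recovery and 6 and 55 at 7 days, and ratios of 7.20 (3.44 to 17.4) and 8.11 (3.50 to 23.1). Within a library, the Hes1 reads were 3.39 times the summed reads of Hey1 and Heyl in the control library with no recovery and 11.4 times at 7 days, and 1.42 and 1.20 times in the OGT-KO-labelled libraries.

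**Figure D3:**
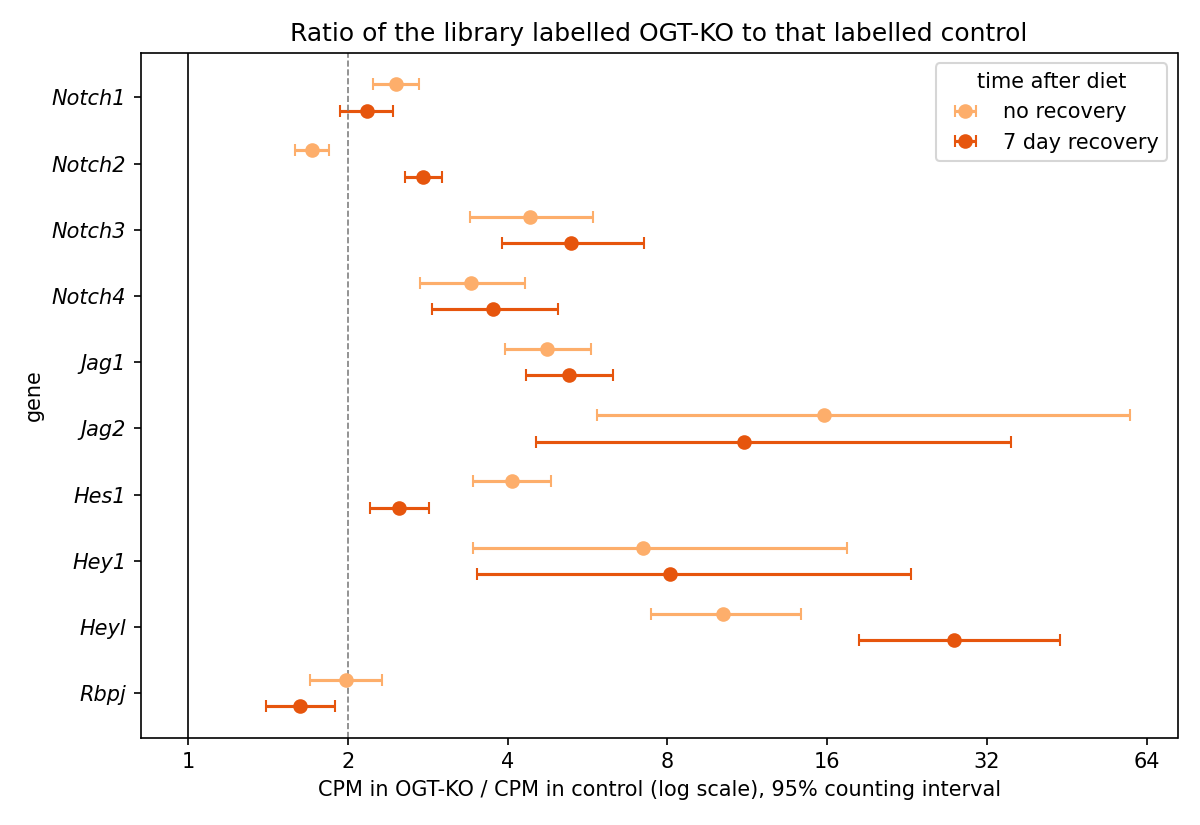
Ratio of the CPM of the OGT-KO-labelled library to that of the library labelled control for each gene (horizontal axis, log scale), with points for no recovery and 7 day recovery and lines for 95% counting intervals. All intervals lie above 1, those of Jag2 and Hey1 are the widest, and the points of Heyl lie at 10.2 and 27.7.

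The only test over libraries that the design allows is an additive fit of label and time (limma on log2(CPM + 1), 1 residual degree of freedom per gene, with the spread pooled over genes). It measures the label difference against what remains after label and time, not against the spread between mice. All 6 members tested were higher with the label at a Benjamini-Hochberg adjusted p under 0.05, but so were 57% of all genes, and 11.5% were lower. The difference was 3.39 ± 0.32 (SE) for Heyl with a limma adjusted p of 0.00023, 2.16 ± 0.16 for Jag1 (0.00010) and 1.59 ± 0.19 for Hes1 (0.00049). It was 1.17 ± 0.13 for Notch1 with a limma adjusted p of 0.00040, 1.11 ± 0.18 for Notch2 (0.0020) and 0.80 ± 0.16 for Rbpj (0.0045). Jag1 and Heyl entered this test only through the OGT-KO-labelled libraries, so their tests are not support. Without the filter on low values all 10 passed, where 62.2% of genes were higher.

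Part of these differences depends on the scaling. Under median-ratio scaling, in which the typical gene sets the scale, the median gene moved to -0.19 and -0.18 on the log2(CPM + 1) scale, and all 10 members were above 0 at both times. Of all genes past 2-fold in either direction, 40.4% and 49.6% were then higher, against 81.1% and 84.3% on the deposited scale. Notch2 then differed by 0.05 with no recovery and by 0.78 at 7 days, and Rbpj by 0.25 and 0.02, and neither passed the limma test (adjusted p of 0.13 and 0.48). Notch1 was then below 2-fold at both times (0.56 and 0.42), Hes1 at 7 days (0.61, after 1.23 with no recovery) and Notch4 with no recovery (0.94, then 1.06). Heyl differed by 2.24 and 3.42, Jag1 by 1.42 and 1.59, and Notch3 by 1.23 and 1.45. In all, 6 of the 10 members were at least 2-fold higher at each time under median-ratio scaling. On the deposited scale 8 and 9 were. The share of all genes without the filter was not counted under median-ratio scaling, so the 6 of 10 has no background to be read against. With the filter, 3 members were at least 2-fold higher with no recovery and 2 at 7 days, where 935 and 1038 of the 8963 compared genes were. The 2 at 7 days were Jag1 and Heyl, which passed the filter only through the OGT-KO-labelled libraries.

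**Figure D4:**
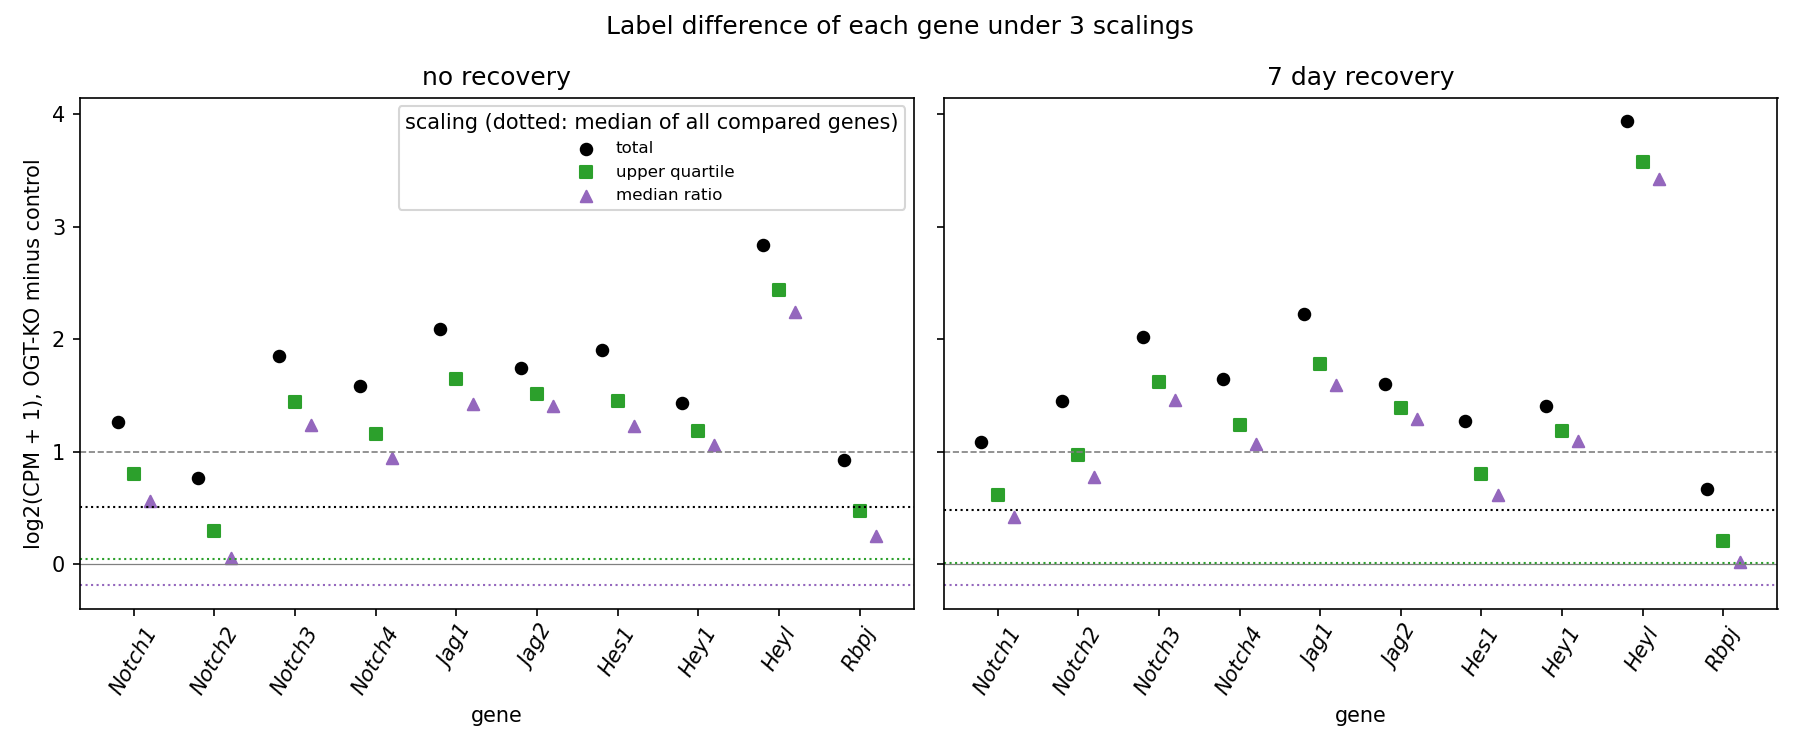
Difference of log2(CPM + 1), OGT-KO minus control, of each gene under 3 scalings of the libraries, with no recovery on the left and 7 day recovery on the right; dotted lines give the median of all compared genes and the dashed line a 2-fold difference. Every point lies above 0, and Notch2 and Rbpj come closest to it, at 0.05 and 0.02 under the median ratio.

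Between 7 days and no recovery, no member that passed the filter differed by 2-fold in either label on the deposited scale, where 1.2% of all compared genes did so in control and 1.47% in OGT-KO. Hes1 came closest: its level in the control libraries was 2.04-fold (1.69 to 2.46) higher at 7 days, a log2(CPM + 1) difference of 0.94 that was just past 2-fold under upper-quartile scaling, and in the OGT-KO-labelled libraries 1.25-fold (1.13 to 1.38) higher. Notch1 was lower at 7 days in both labels, at 0.829 (0.728 to 0.944) of its earlier level in control and 0.731 (0.674 to 0.793) in OGT-KO. Notch2 was at 0.802 (0.732 to 0.878) of its earlier level in control and at 1.30 (1.23 to 1.38) in OGT-KO. Heyl was at 0.569 (0.327 to 0.966) in control and at 1.55 (1.38 to 1.74) in OGT-KO, so both genes went down in one label and up in the other. In the additive limma fit, 0% of genes differed with time at an adjusted p under 0.05 (0 genes; 640 at an unadjusted p under 0.05, and 0 and 542 with edgeR). The limma adjusted p was 0.60 for Hes1 and 0.65 for Notch1.

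The label difference at 7 days minus that with no recovery was 1.10 on the log2(CPM + 1) scale for Heyl, the 1 member past 2-fold, where 2.73% of the compared genes were past it in either direction. It was 0.69 for Notch2 and -0.63 for Hes1, and between -0.26 and 0.17 for the others. With 1 library per condition this difference has no test.

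Other genes of the pathway were taken from a list of 80, of which 71 were in the table and 55 passed the filter. At 2-fold, 16 were higher and 2 lower with no recovery, and 17 higher and 1 lower at 7 days, that is 29.1% and 30.9% higher, near the 24.4% and 22.9% of all compared genes. Their median differences were 0.61 and 0.74. Of the 55, 9 passed the filter only through the OGT-KO-labelled libraries, with a control mean under 10 CPM: Dll1, Poglut3, Eogt, Neurl1b, Neurl3, L3mbtl3, Dtx2, Dtx3 and Cd44. A gene that entered in this way had to be higher there, so neither its call nor its test is support. In the additive fit, 34 of the 55 were higher and 3 lower at a limma adjusted p under 0.05. Of all compared genes, 57% were higher and 11.5% lower in that fit, so the count is not particular to the pathway. The split of the 55 was 16 and 19 under median-ratio scaling, where 1705 and 3114 of 8963 genes were called. It was 19 and 13 with edgeR, where 2243 and 2158 were.

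Of 2 other ligands that passed, Dll1, a Delta ligand, was 2-fold higher at both times, with 4.99 and 17.6 CPM with no recovery and 5.46 and 13.3 CPM at 7 days. Its difference was 0.99 and 0.54 under median-ratio scaling, below 2-fold. Dlk1, a non-canonical ligand of fetal liver that was picked out after its values were seen, had 0 reads in both control libraries and 127 and 141 in the OGT-KO-labelled libraries, which is at least 39.4-fold and 41.6-fold higher when set against 3 reads per control library. Of 6 genes for sugar addition to the receptor, 1 was 2-fold higher, Eogt, which places O-GlcNAc on the extracellular repeats of Notch and is a different enzyme from OGT. Eogt had 5.74 and 15.1 CPM, then 6.31 and 15.0 CPM, and its difference of 1.26 and 1.13 on the deposited scale was 0.61 and 0.51 under median-ratio scaling and 0.83 and 0.69 under upper-quartile scaling.

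Of 12 genes for ligand and receptor processing, 5 were 2-fold higher at both times, and 2 and 3 of them under median-ratio and upper-quartile scaling. On the deposited scale 24.4% and 22.9% of all compared genes were 2-fold higher at each single time, and the share at both times was not counted. Neurl1b and Neurl3, which are among the 5, passed the filter only through the OGT-KO-labelled libraries. They were also the 2 that remained under median-ratio scaling, and Adam10 joined them under upper-quartile scaling. Under median-ratio scaling Adam10 was below 2-fold with no recovery (0.92) and just past it at 7 days. Ncstn (0.38 and 0.43) and Adam17 (0.32 and 0.61) were then below 2-fold at both times. Adam10, the protease of the ligand-induced cut, had 25.1 and 79.2 CPM with no recovery and 24.5 and 80.2 CPM at 7 days. Ncstn, a subunit of gamma-secretase, had 50.8 and 109 CPM, then 47.3 and 103 CPM, whereas Psen2, one of its catalytic subunits, went the other way at 213 and 97.3 CPM and then 170 and 150 CPM. Neurl1b, of a ubiquitin ligase family that acts on Notch ligands, differed by 2.84 and 3.84 on the log2(CPM + 1) scale, Neurl3 by 2.01 and 3.07, and Adam17, a related protease, by 1.03 and 1.28.

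None of the 6 co-activators of RBPJ that passed was 2-fold different, with Crebbp, a histone acetyltransferase, at 0.61 and 0.76 and Kat2b, another, at -0.10 and -0.11. Below the filter, the Mastermind genes Maml2 (1.49 and 2.22) and Maml3 (0.93 and 1.66), picked out after their values were seen, had larger values. Of 13 co-repressors, 3 were 2-fold higher at both times: the Groucho family member Tle3 (1.41 and 1.27), L3mbtl3 (1.46 and 1.26) and the histone demethylase Kdm5a (1.42 and 1.01). Of all compared genes, 24.4% and 22.9% were 2-fold higher at each single time, and the share at both times was not counted. None of the 13 was 2-fold higher at both times under median-ratio or upper-quartile scaling, while 1 was lower under the former. Of 9 negative regulators, 1 was higher at both times, Dtx3 of the Deltex family, at 2.20 and 2.47.

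Of 7 genes that were listed as other targets and passed, 5 were 2-fold higher at both times. Of the 5, Cd44 had passed only through the OGT-KO-labelled libraries. Among all compared genes, 24.4% were 2-fold higher with no recovery and 22.9% at 7 days, and the share at both times was not counted. Sox9, a duct and progenitor transcription factor, had 8.56 and 56.7 CPM with no recovery and 12.9 and 68.3 CPM at 7 days. Spp1, a secreted protein of ducts and scar tissue, differed by 4.54 and 4.55 on the log2(CPM + 1) scale, the adhesion receptor Cd44 by 2.97 and 4.11, the cyclin Ccnd1 by 2.53 and 3.18, and Myc by 2.55 and 1.83. Hes6, which antagonizes Hes1, was the 1 gene of the list lower at both times, with 95.5 and 17.5 CPM, then 67.8 and 23.7 CPM (chosen for mention after its values were seen). These genes have many other inputs than Notch.

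**Figure D5:**
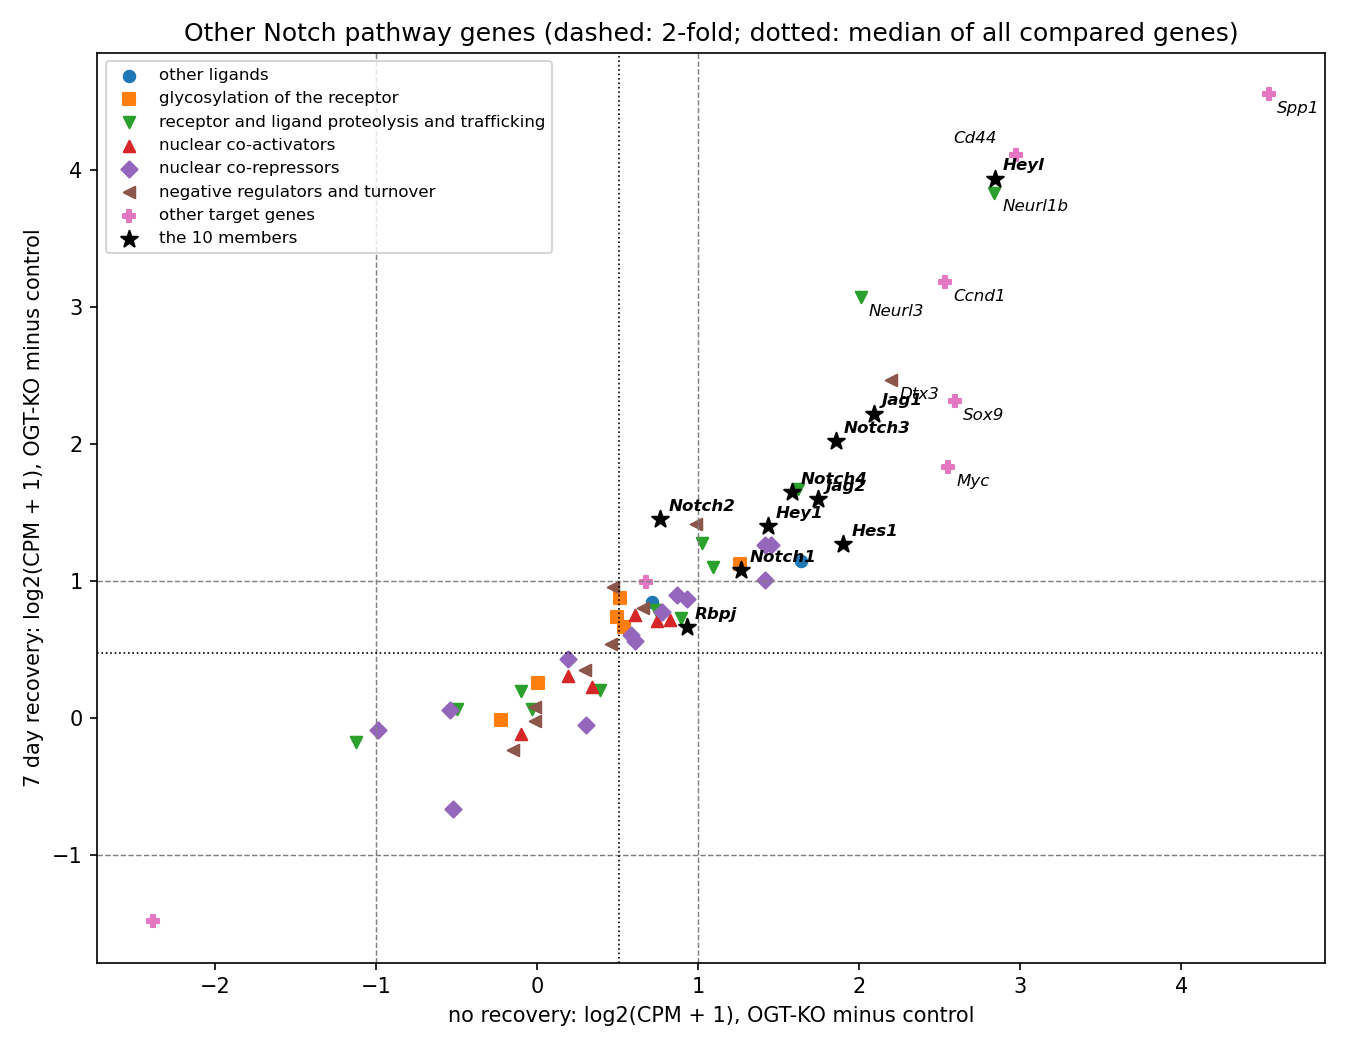
Label difference with no recovery (horizontal axis) and at 7 days (vertical axis), both as log2(CPM + 1) in OGT-KO minus control, for the 55 other pathway genes that passed the filter and the 10 members (stars); dashed lines mark 2-fold and dotted lines the median of all compared genes. Most points lie within 2-fold, the 10 members all lie above 0 on both axes, and Hes6 is the unlabelled point at the lower left.

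Markers of other cell types differed with the label as well. Of all compared genes, 24.4% were 2-fold higher and 5.69% lower with no recovery. At 7 days 22.9% were higher and 4.27% lower, and the shares at both times were not counted. In bulk liver, fewer cells of a type and less RNA per cell cannot be told apart. Of 9 bile duct markers that passed, 8 were 2-fold higher at both times (Sox9 and Spp1 are among those also on the target list), and their summed level was 78.9 and 1250 CPM with no recovery and 99.9 and 1601 CPM at 7 days. All 10 stellate cell and myofibroblast markers were higher, with sums of 253.9 and 3548 CPM, then 181.9 and 4319 CPM. The endothelial markers were higher in 3 of 10 at both times, and in 0 of 10 under median-ratio and upper-quartile scaling (sums of 291.5 and 594.1 CPM, then 196.5 and 428.4 CPM), and the macrophage markers were higher in 6 of 6 (5 under both other scalings) and the cycling cell markers in 4 of 4. All 3 mural and smooth muscle markers that passed were higher (of 6 listed, 1 being Notch3 itself). Passing the filter only through the OGT-KO-labelled libraries applied to 6 of the 9 bile duct markers, 4 of the 10 stellate cell and myofibroblast, 2 of the 10 endothelial, 2 of the 3 mural, 3 of the 6 macrophage and all 4 cycling cell markers, so these counts describe the lists and are not support. Hepatocyte markers were 2-fold lower at both times in 5 of 10 (7 under median-ratio and 6 under upper-quartile scaling). Alb, the main hepatocyte transcript, lay between 41362 and 54435 CPM. No passing lymphocyte or neutrophil marker was found, with sums between 1.65 and 15.6 CPM. The part of these markers in the values of the Notch genes was not tested.

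Set against the summed markers of one cell type within the same library, members took different positions, and several of these depended on 1 to 3 abundant markers, which were left out as an alternative chosen after the values were seen. Notch1 per endothelial marker read was 1.21-fold (1.09 to 1.34) higher with no recovery and 0.996-fold (0.884 to 1.12) at 7 days. Without Aqp1 the Notch1 values were 1.33-fold (1.19 to 1.47) and 1.15-fold (1.02 to 1.29). Notch4 per endothelial marker read was 1.68-fold (1.34 to 2.10) and 1.73-fold (1.32 to 2.25) higher. Notch4 was thus above its control ratio to the endothelial markers at both times, and Notch1 was so at both times only without Aqp1.

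Jag1 stood in the OGT-KO-labelled libraries at 0.300 (0.249 to 0.362) and 0.326 (0.270 to 0.393) of its control ratio to the bile duct markers, most of whose reads there are of Spp1. Without Spp1 it stood at 0.659 (0.542 to 0.802) and 0.701 (0.577 to 0.852). Notch2 stood at 0.108 (0.0989 to 0.118) and 0.173 (0.158 to 0.190) of its control ratio to all the bile duct markers, which was not recomputed without Spp1. Notch3 was at 0.754 (0.578 to 0.985) and 0.446 (0.326 to 0.611) of its control ratio to the mural markers, most of whose reads are of Rgs5. Without Rgs5 it was at 0.846 (0.633 to 1.13) and 1.01 (0.718 to 1.43), both with intervals that include 1. Against the stellate cell and myofibroblast markers Notch3 was at 0.316 (0.243 to 0.409) and 0.222 (0.164 to 0.299), which was not recomputed without the collagens. Heyl was at 1.75 (1.27 to 2.40) and 2.35 (1.54 to 3.61) of its control ratio to the mural markers, and without Rgs5 at 1.96 (1.39 to 2.75) and 5.34 (3.40 to 8.37). Against the stellate cell and myofibroblast markers Heyl was at 0.730 (0.534 to 0.999) and 1.17 (0.771 to 1.77), and without the collagens Col1a1, Col1a2 and Col3a1 at 1.88 (1.37 to 2.57) and 3.87 (2.55 to 5.88), which turns the direction with no recovery.

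For each member, the most similar profile over the 4 libraries was sought among genes outside the 10 with a mean of 10 CPM or more. The measure was the Euclidean distance of centred log2(CPM + 1) values, and the nearest gene is given. It was Timp3 for Heyl, Nlgn2 for Jag1, Loxl3 for Notch3, Tuba1c for Notch4, Tomm20 for Notch1, Sept9 for Notch2, Tctn1 for Hes1, Htatip2 for Jag2, Sh3gl1 for Hey1 and Trmt2a for Rbpj. For low members such as Jag2 and Hey1 the scale understates the difference, so a near distance is not a like ratio. Htatip2 had 23.3 and 79.0 CPM with no recovery, where Jag2 had 0.188 and 2.97. Distances ran from 0.011 for Rbpj to 0.20 for Hes1, and with 4 libraries many genes share a profile: between 115 and 3944 genes lay nearer to a member than its nearest fellow member did.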

How the data were processed

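One deposited table of CPM was used, which the authors made from mRNA-seq reads of the 4 libraries (TRIzol RNA from about 60 mg of liver, Tecan universal plus kit). Its name refers to DESeq2, but each column sums to 1000000 and 100% of the values are whole multiples of 1 read (tolerance 0.05 reads), so reads were recovered. The submitters' processing notes name STAR, DESeq2 and GRCm39; the strand setting is not given in the sources used here. No column was left out. Differences are of log2(CPM + 1), a scale that understates low genes; genes with a mean of 10 CPM or more were compared (8963), and 2-fold was called, with no p between single libraries. Poisson, conditional binomial and Clopper-Pearson intervals were used for levels, ratios and shares. Lengths were those of the union of all exons of a gene in GENCODE M21 (13899 genes matched), not of 1 transcript, and promoters came from RefSeq.

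Label and time were fitted with limma 3.58.1 (trend, empirical Bayes, Benjamini-Hochberg), with edgeR 4.0.16 on the recovered reads as an alternative. The fit was tested on simulated reads of 8974 genes, where limma called 200 of 200 genes changed 4-fold and 5 unchanged ones. As many genes were raised as lowered there, with the same spread for all genes and no general shift. The simulation thus does not measure how the fit does on these data. Other alternatives were pseudocounts of 0.1 and 10 CPM, no filter, median-ratio and upper-quartile scaling, and an exact binomial test of the reads. Beside the 10 members, up to 5 genes of each list were named that passed 2-fold the same way at both times, or else the 2 of highest level, and the 1 nearest gene of each member. The members and lists were chosen with earlier results of these data known. Python 3.11.15 and scipy 1.17.1 were used.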

Additional observations from a re-analysis of the deposited data

Results flagged for a closer look

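Notch2 and Heyl moved in opposite directions over time in the 2 labels, each by more than counting error. The log2(CPM + 1) change of Notch2 from no recovery to 7 days was -0.31 in control and 0.38 in OGT-KO, a difference of 0.69. That of Heyl was -0.49 in control and 0.61 in OGT-KO, a difference of 1.10. Each rests on 1 library per condition, and the differences were not tested. Jag2 also had opposite signs, 0.07 and -0.07, both within counting error. Groups of 1 library cannot be searched for outlying samples.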

How the results depend on the processing

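No paired analysis was possible because each condition has 1 library. Each library is the whole of its group, so none could be left out in turn. Under median-ratio and upper-quartile scaling, the settings that could turn a sign, all 40 label differences of the 10 members were above 0, the lowest 0.02. Ratios to marker sums whose intervals had excluded 1 turned in 2 cases, in alternatives chosen after seeing the data. Notch3 per mural marker at 7 days was 1.01 without Rgs5, and Heyl per stellate cell and myofibroblast marker with no recovery was 1.88 without 3 collagens. Notch1 per endothelial marker at 7 days, whose interval had included 1, went from 0.996 to 1.15 without Aqp1. Without a filter, 8 of the 10 members were 2-fold higher with no recovery and 9 at 7 days. Of the 6 that passed the filter, 3 were 2-fold higher at 7 days with a pseudocount of 10, and 2 under median-ratio and upper-quartile scaling. In control over time, 1 member passed 2-fold with a pseudocount of 0.1 and under upper-quartile scaling, where 0 had. With a pseudocount of 10, 0 members were past 2-fold in the difference between times. Without a filter, 10 members passed the label fit. Rbpj lost its call with edgeR (adjusted p of 0.15), median-ratio (0.48) and upper-quartile scaling (0.12), and Notch2 under median-ratio scaling (0.13).

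Over all genes with no recovery, 1367 were 2-fold higher with a pseudocount of 10 and 4595 without a filter; median-ratio scaling gave 935 higher and 1381 lower, upper quartile 1208 and 981. At 7 days the counts were 1344 and 4492, then 1038 and 1055, and 1215 and 740. Over time in control, 165 genes passed 2-fold with a pseudocount of 0.1, 33 with 10 and 165 without a filter; in OGT-KO 57 passed with 10 and 288 without a filter; between times 86 and 494. The label fit gave 8642 higher without a filter, 1705 higher and 3114 lower under median-ratio scaling, 2417 and 2194 under upper quartile, and 2243 and 2158 with edgeR. The cause of these shifts was not tested. The other 95 recomputed counts stayed within 1.5 times. Depth limits Jag2 and Hey1, with 4 to 8 control reads.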
